A study of Mus musculus with 15 samples.

Results

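Read counts per gene were compared between mouse ESCs after 10 h in the auxin IAA and the same ESCs at 0 h, to describe which transcripts had moved within hours of removing OCT4 protein. The libraries were chosen by their labels alone, 1 untreated and 1 treated with IAA for 10 h, out of 15 libraries in the series, and all genes counted in them were members of the comparison. Both libraries came from O4AID ESCs, of strain 129SV, whose labels give them as Oct4-/- with a TetOFF Oct4 transgene and CAG-driven Oct4AID and Tir1. These cells lack functional endogenous *Pou5f1* alleles, hold a wild-type *Oct4* transgene that doxycycline (1 µg/ml) keeps silent, and depend on OCT4 fused at its C terminus to an auxin-inducible degron (AID), which the CAG promoter drives together with the rice F-box protein TIR1. The transgenes were inserted with piggyBac into ZHBTc4 ESCs, and whether the line is 1 clone was not given in the sources used here. Both groups carried every allele and doxycycline, and grew in N2B27 with the MEK inhibitor PD03, the GSK3 inhibitor Chiron and mLIF, so they differed by IAA (0 or 500 µM) and the hours in it. Other libraries served as side views, namely O4AID at 1.5, 6 and 24 h of IAA (1 each) and CreER ESCs, labelled Oct4Fl/-; CAG CreER on a mixed 129SV and C57BL/6 strain, at 0, 12 and 36 h of 4OHT (500 nM; 2 each).

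OCT4 is a POU-family transcription factor that binds an octamer in DNA, often beside SOX2, and keeps naive ESCs in self-renewal with factors such as NANOG, ESRRB, KLF4 and TFCP2L1. Embryos or ESCs without it turn towards trophectoderm, the outer lineage of the blastocyst. In an AID system, IAA glues the degron to TIR1 and the tagged protein is ubiquitinated and degraded, so the protein goes while its mRNA can stay.

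The 0 h library held 48.7 M counted reads and the 10 h library 40.5 M. Levels are CPM, the counts per mega-count of library after edgeR's TMM scaling over the 5 O4AID libraries, and they count reads without dividing by gene length. A gene was compared when the libraries held a mean of at least 10 counts, and was placed past 2-fold when the log2 ratio of (CPM + 1) at 10 h over 0 h reached 1 in size. With 1 library a side no p-value was computed, the comparison speaks of these libraries and not of the conditions, and each 95% interval (exact, conditional on the sum of counts) covers counting error only. As a gauge of spread, the replicate pairs of CreER held 0 to 4 genes past the same 2-fold limit at any of their 5 times. Their counts still differed by a chi-square of 3.27 to 7.76 per degree of freedom, where counting error alone gives about 1, so the intervals are narrower than the spread between such replicates. These pairs are of another line at lower depth and may be technical replicates. They describe that line and set no noise level for O4AID. Since these are bulk libraries, fewer cells of a type and less RNA per cell cannot be told apart.

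*Pou5f1* (ENSMUSG00000024406, chr17:35506018-35510772, plus strand, GRCm38), the gene whose product was targeted, stood at 717 CPM at 0 h and 670.0 CPM at 10 h, a log2 ratio of -0.10 (95% interval -0.12 to -0.08). Its transcript was thus near its starting level after 10 h of IAA. These counts pool reads of the fusion transgene with any from the other alleles, so they do not measure OCT4 protein and do not check the depletion.

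Of 17437 genes compared, 367 (2.1%) lay past 2-fold. The higher group counted 194 genes (1.11%) and the lower group 173 (0.992%), while the median log2 ratio over all genes compared was -0.01. All 367 counting intervals, which leave out that further spread, excluded 0, but at this depth the rule on CPM + 1 fixes that outcome. Of the higher genes 109 and of the lower genes 117 had an interval wholly past 2-fold. Changes of at least 4-fold were fewer, at 16 higher and 10 lower genes. At 0 h 39 of the higher genes stood under 1 CPM. Summed over the higher genes the level went from 2911 to 7422 CPM, and over the lower genes from 21327 to 6595 CPM. A single ribosomal RNA entry, *CT010467.1*, took a large part of that second sum, and over the other 172 lower genes the level dropped by 10227 CPM. Protein-coding genes made up 191 of the higher and 147 of the lower genes, out of 14211 compared, and 6 lincRNAs were lower and 0 higher out of 531. The edge of the call was close to many genes, with 103 genes within 0.1 log2 inside it and 94 within 0.1 outside it. *Egln3* (1.0006) and *Dpp4* (-1.0056) were just inside, and *Letmd1* (0.9949) and *Gm43803* (-0.99978) just outside.

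**Figure D1:**
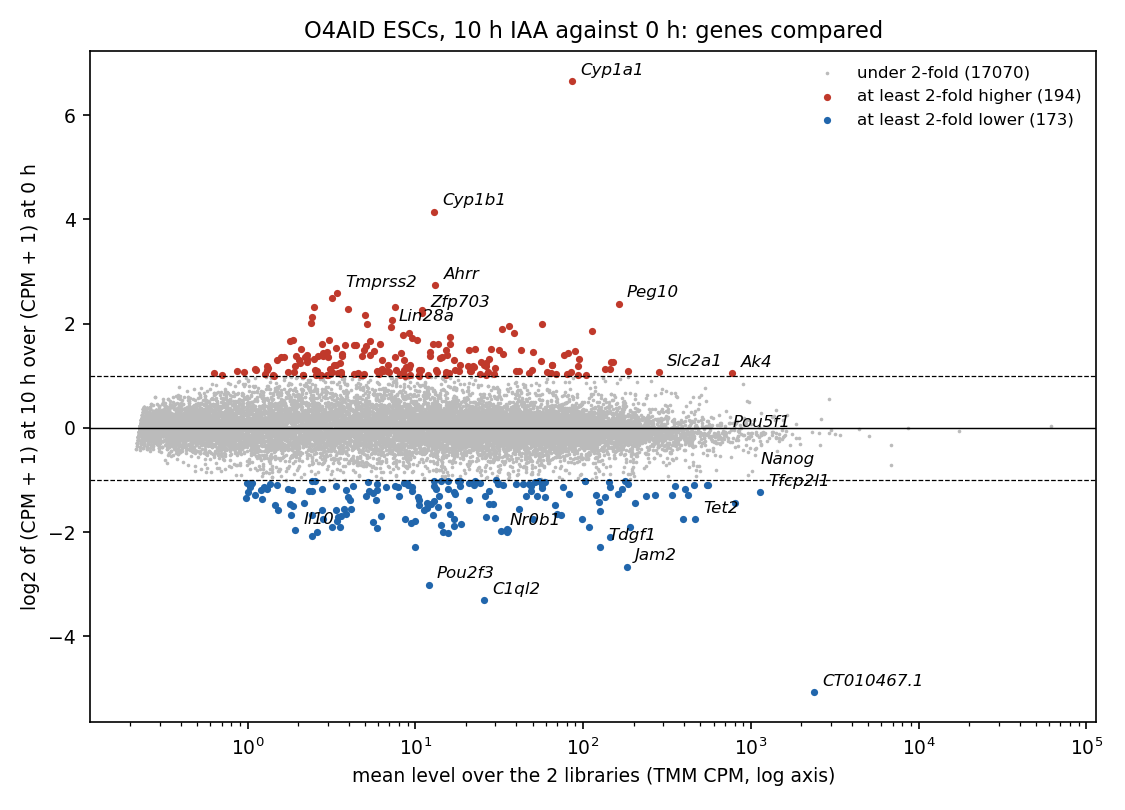
Log2 ratio of (CPM + 1) at 10 h over 0 h (y axis) against the mean CPM of the 2 O4AID libraries (x axis, log scale) for the 17437 genes compared, each point 1 gene. The 194 genes at least 2-fold higher (red) reach 6.65 at *Cyp1a1*, the 173 at least 2-fold lower (blue) reach -5.06 at *CT010467.1*, dashed lines mark 2-fold, and *Pou5f1* lies near 0.

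The naive pluripotency genes were lower at 10 h. Of the 9 genes the study followed for pluripotency, singled out in its account of these libraries by a choice the sources used here do not explain, and so not taken as independent evidence of their direction, 5 were past 2-fold lower and 9 of 9 were below 0, with a median log2 ratio of -1.24 against -0.01 over all genes compared. *Tfcp2l1*, a transcription factor of the naive network, went from 1598 to 677 CPM (log2 -1.24, 95% interval -1.26 to -1.22). *Klf4*, a Krüppel-like factor that is also a reprogramming factor, went from 153 to 45.1 CPM (log2 -1.74, 95% interval -1.82 to -1.67). *Nr0b1*, which encodes the orphan nuclear receptor DAX1, had the largest ratio of the list, from 52.5 to 12.6 CPM, 4.18-fold lower (95% interval 3.80 to 4.61). *Zfp42* (REX1, a zinc finger protein used as a naive marker) and *Tbx3* (a T-box factor) were also past the limit, at log2 -1.30 and -1.42. The core factors were lower by less than 2-fold. *Nanog* went from 1304 to 740.3 CPM (log2 -0.82), *Sox2* from 315 to 212 CPM (-0.57), *Sall4* from 301 to 190.4 CPM (-0.66) and *Prdm14* from 46.7 to 25.0 CPM (-0.88).

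A further list of 28 pluripotency-associated genes held 13 past 2-fold lower and 1 past 2-fold higher, with a median of -0.94. This list and those below were chosen with earlier results of these data known. Their counts are therefore not independent evidence of direction either. *Jam2*, a junctional adhesion molecule, went from 314 to 48.9 CPM and was 6.42-fold lower (95% interval 6.13 to 6.74). *Tdgf1*, the Nodal co-receptor also called Cripto, went from 209.6 to 42.4 CPM, and reads of it and of its pseudogenes may be shared. *L1td1*, which encodes an RNA-binding protein derived from a LINE-1 open reading frame, went from 235 to 54.4 CPM. The nuclear receptor *Esrrb* (763 to 355 CPM), the Krüppel-like factor *Klf2* (67.5 to 30.5 CPM) and the growth factor *Fgf4* (229 to 94.3 CPM) were past the limit as well. Others past it included *Tet2* (714 to 212 CPM), which encodes a 5-methylcytosine oxidase, *Mybl2*, *Zfp57*, *Tcl1*, *Dppa3* and *Gdf3*, with log2 ratios between -1.85 for *Tcl1* and -1.01 for *Dppa3*. *Lin28a*, an RNA-binding repressor of let-7 miRNAs, was the exception, at 2.37 CPM at 0 h and 11.9 CPM at 10 h (log2 1.93, 95% interval 1.70 to 2.16). Under total-count scaling *Zfp57*, *Dppa3* and *Gdf3* lay just short of 2-fold (log2 -0.97, -0.94 and -0.95).

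Levels at the other times are given beside these for the O4AID libraries, all of which would share the 0 h library in a ratio. *Tfcp2l1* stood at 1423 CPM at 1.5 h, 700.3 at 6 h and 501 at 24 h. *Esrrb* stood at 653, 356 and 107 CPM, and *Nanog* at 1215, 837 and 382 CPM. For these genes the 6 and 10 h levels lay nearer to each other than either did to the 0 h level. *Jam2* (295, 111 and 23.6 CPM) and *Nr0b1* (42.6, 17.2 and 4.94 CPM) were lower at 10 h than at 6 h. *Klf2* was unlike them, at 37.7 CPM by 1.5 h, so that with the 1.5 h library in place of 0 h its log2 ratio was -0.29. With that reference 7 of the 13 lower genes of the longer list lay short of 2-fold, among them *Esrrb*, *Klf2*, *Fgf4*, *Gdf3*, *Mybl2* and *Zfp57*.

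Because OCT4 reads an octamer, the letters ATGCAAAT were searched on either strand (ATTTGCAT on the other) in RefSeq promoters of build GRCm38.p6, each running from 250 bases before to 50 bases after a start. They were present in 4 of 110 lower genes with a promoter (3.64%), 7 of 151 higher genes (4.64%), 193 of 11767 genes compared (1.64%) and 1.74% of the 32851 promoters in the table. The lower genes that held it were *Lpcat1*, *Pnpla3*, *Zfp296* and *Zfp42*. The 250 bases before the start of *Zfp42* (chr8:43307010-43307259, minus strand) and *Zfp296* (chr7:19577037-19577286, plus strand), both ESC-enriched zinc finger genes past 2-fold lower, are shown with the octamer match in capitals, which begins 186 bases before the start in *Zfp42* and 111 in *Zfp296*. A match is a description of letters and not a bound site.
Zfp42: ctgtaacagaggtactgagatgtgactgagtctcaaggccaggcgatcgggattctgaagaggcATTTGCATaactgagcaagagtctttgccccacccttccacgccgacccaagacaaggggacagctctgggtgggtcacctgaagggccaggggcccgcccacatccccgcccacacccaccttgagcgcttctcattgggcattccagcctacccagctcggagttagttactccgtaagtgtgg
Zfp296: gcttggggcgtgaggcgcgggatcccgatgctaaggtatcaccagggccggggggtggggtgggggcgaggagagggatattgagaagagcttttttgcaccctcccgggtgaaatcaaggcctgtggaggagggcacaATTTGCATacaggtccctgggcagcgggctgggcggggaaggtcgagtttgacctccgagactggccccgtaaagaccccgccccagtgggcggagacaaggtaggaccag

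*Zfp296*, a zinc finger gene enriched in ESCs, was at 25.8 CPM at 0 h and 5.64 CPM at 10 h, 4.58-fold lower (95% interval 3.97 to 5.29). It was one of the 15 lowest log2 ratios among genes with a mean of at least 50 counts. The list began with *CT010467.1* (chr17:39846353-39848827), a multi-copy ribosomal RNA entry whose counts are uncertain, at 4642 CPM at 0 h and 138 CPM at 10 h. It took 0.446% of the 0 h reads and 0.0139% of the 10 h reads after the authors' depletion of ribosomal RNA, and stood at 975, 235 and 939.8 CPM at 1.5, 6 and 24 h, so it did not move in one direction with time. *C1ql2*, which encodes a secreted C1q-domain protein, went from 47.2 to 3.88 CPM (log2 -3.30, 95% interval -3.50 to -3.11). *Pou2f3*, a POU-domain factor known from tuft cells, went from 22.1 to 1.88 CPM, a log2 ratio of -3.01 (95% interval -3.23 to -2.77). *Kcnd3* encodes a potassium channel subunit and went from 17.2 to 2.71 CPM. *Nmnat2*, an NAD-synthesising enzyme, went from 57.6 to 14.1 CPM, and *Spry2*, a feedback inhibitor of receptor tyrosine kinase signalling, from 57.1 to 13.7 CPM. The cytokine gene *Il10* went from 170 counts to 8 and the homeobox gene *Nkx1-2* from 213 to 13, and the transcripts *1700016D06Rik* and *C130073F10Rik* completed the set, from 223 counts to 18 and from 1128 to 217. Among genes past 2-fold, those that lost the most CPM after *CT010467.1* were *Tfcp2l1*, *Gm43041* (1181 to 437 CPM), *Tet2* and the lincRNA *Platr15* (612 to 181 CPM).

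The highest log2 ratios belonged to targets of the aryl hydrocarbon receptor (AhR), a ligand-activated transcription factor that pairs with ARNT at GCGTG cores and whose known ligands include indole compounds. Of 8 listed targets 7 were compared, 4 were past 2-fold higher and 0 lower, and the median log2 ratio was 1.40. *Cyp1a1*, a cytochrome P450 that oxidises aromatic hydrocarbons, went from 33 counts (0.704 CPM) to 6974 (170.3 CPM), 242-fold higher (95% interval 172 to 351). *Cyp1b1*, its relative, went from 23 counts (0.491 CPM) to 1044 (25.5 CPM), 51.9-fold higher (95% interval 34.4 to 82.3). The receptor's own feedback genes were higher too, the repressor *Ahrr* at 2.69 and 23.6 CPM (log2 2.73, 95% interval 2.53 to 2.94) and the mono-ADP-ribosyltransferase *Tiparp* at 41.7 and 112 CPM (log2 1.40, 95% interval 1.32 to 1.47). *Nqo1*, a quinone reductase, stayed just short at log2 0.94 (113 to 218 CPM), *Cyp1a2* had 3 and 17 counts (log2 0.41, 95% interval 0.17 to 0.54), *Aldh3a1* was at -0.45, and *Ugt1a6a* had 0 counts in both libraries, which allows up to 0.064 CPM at 0 h and 0.0733 CPM at 10 h (3 counts of each library). *Cyp1a1* stood at 10.7 CPM at 1.5 h, 74.1 at 6 h and 277 at 24 h, and *Cyp1b1* at 0.918, 9.76 and 99.8 CPM, so both were higher in each later library. None of the 15 libraries held IAA without the OCT4 degron. In these libraries IAA itself and the loss of OCT4 thus cannot be told apart, in these genes or any other gene compared. Outside these libraries, the study ran qRT-PCR of pluripotency and trophectoderm genes in eGFP-AID ESCs given IAA. From it the study reports that IAA itself caused neither of those changes.

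The GCGTG core (CACGC on the other strand) was present in the RefSeq promoter of each of the 4 AhR targets past 2-fold, and in neither *Nqo1* nor *Cyp1a2*. It is a common string, held by 32.4% of all promoters, 53.7% of those of genes compared, 45% of those of higher genes and 48.2% of those of lower genes. The 250 bases before the start are shown with the core in capitals for *Cyp1a1* (chr9:57697363-57697612, plus strand), where it begins 54 bases before the start, *Cyp1b1* (chr17:79715062-79715311, minus strand; 76 bases), *Ahrr* (chr13:74292332-74292581, minus strand; 107, 82 and 27 bases) and *Tiparp* (chr3:65528197-65528446, plus strand; 170 bases).
Cyp1a1: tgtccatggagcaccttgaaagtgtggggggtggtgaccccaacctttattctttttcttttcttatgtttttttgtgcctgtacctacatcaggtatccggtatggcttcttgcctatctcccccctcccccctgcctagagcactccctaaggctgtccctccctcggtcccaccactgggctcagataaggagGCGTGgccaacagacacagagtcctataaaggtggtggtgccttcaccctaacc
Cyp1b1: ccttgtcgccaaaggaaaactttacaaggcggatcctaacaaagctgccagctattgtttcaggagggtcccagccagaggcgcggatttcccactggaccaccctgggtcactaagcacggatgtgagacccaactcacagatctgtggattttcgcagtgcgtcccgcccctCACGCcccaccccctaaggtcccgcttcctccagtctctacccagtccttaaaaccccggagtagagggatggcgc
Ahrr: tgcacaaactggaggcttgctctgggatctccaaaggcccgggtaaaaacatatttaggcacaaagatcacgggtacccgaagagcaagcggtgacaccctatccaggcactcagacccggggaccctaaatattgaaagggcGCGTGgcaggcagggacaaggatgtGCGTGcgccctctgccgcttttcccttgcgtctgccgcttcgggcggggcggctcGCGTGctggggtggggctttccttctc
Tiparp: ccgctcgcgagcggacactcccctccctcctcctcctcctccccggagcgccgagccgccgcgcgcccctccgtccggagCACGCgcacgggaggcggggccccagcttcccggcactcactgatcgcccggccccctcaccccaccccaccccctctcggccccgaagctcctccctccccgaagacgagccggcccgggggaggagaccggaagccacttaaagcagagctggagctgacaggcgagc

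**Figure D2:**
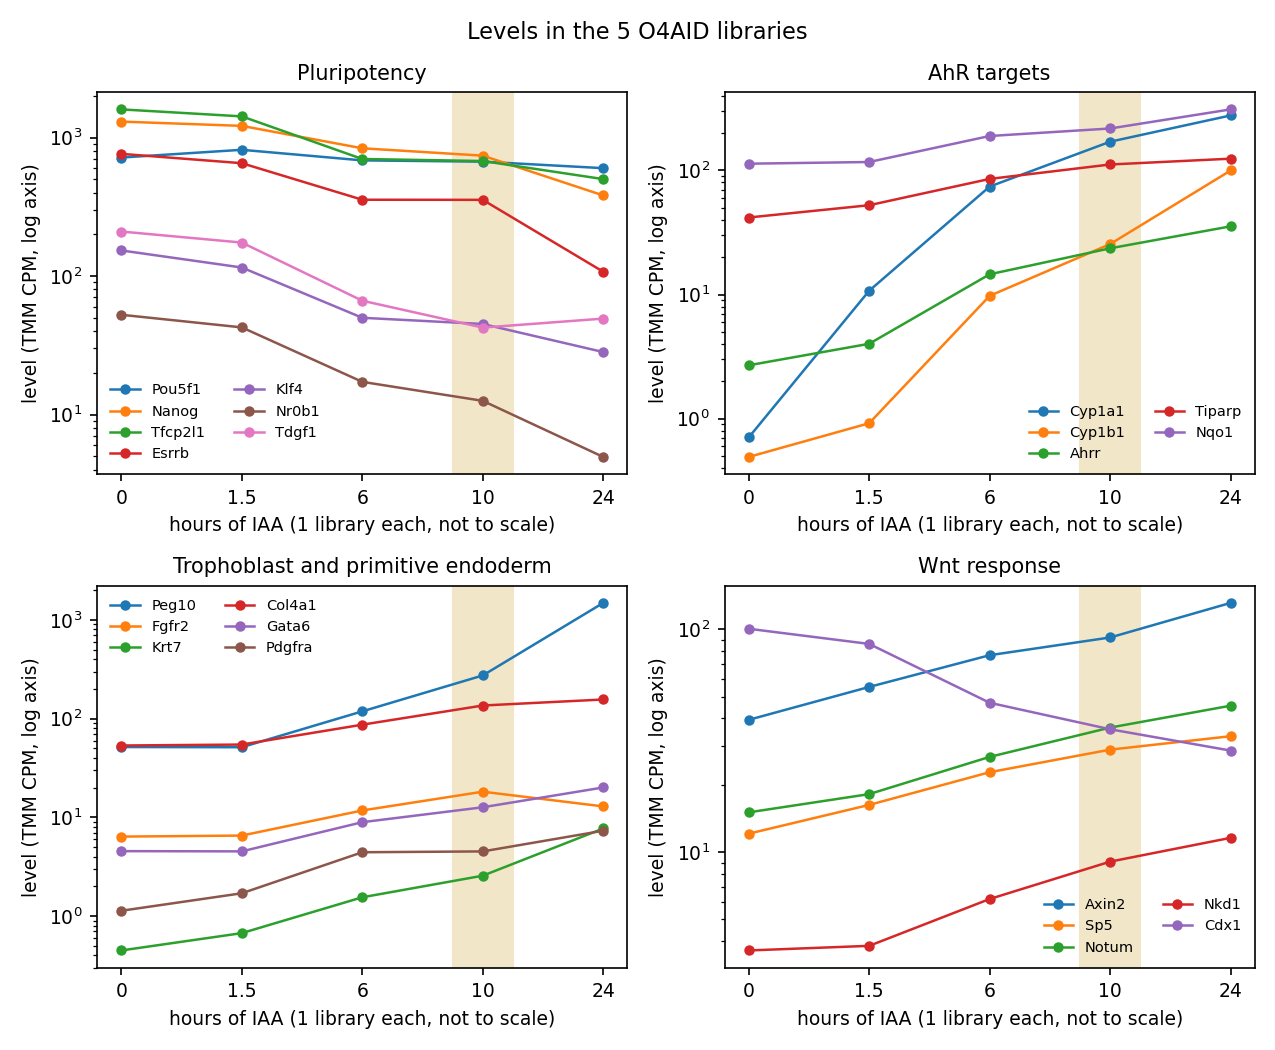
Levels (y axes, TMM CPM, log scale) of selected genes, in 4 panels, in the 5 O4AID libraries (x axes, hours of IAA, 1 library each, spaced evenly and not to scale), with 10 h shaded and lines joining single libraries. *Cyp1a1* stands at 0.704 CPM at 0 h and 170.3 at 10 h, *Tfcp2l1* at 1598 and 677, and *Pou5f1* at 717 and 670.0.

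Trophoblast genes were partly higher, from low levels. The study's 5 trophectoderm genes, again not taken as independent evidence, had 4 compared, 1 past 2-fold higher and a median of 0.58. *Krt7*, a simple-epithelial keratin, went from 21 counts (0.448 CPM) to 105 (2.56 CPM), 5.72-fold higher (95% interval 3.56 to 9.62). The transcription factors *Gata3* (1.17 and 2.37 CPM), *Cdx2* (0.897 and 1.73 CPM) and *Hand1* (0.299 and 0.562 CPM) stayed under the limit, and the interval for *Hand1* included 0 (95% interval -0.03 to 0.53). *Gcm1* was below the count minimum. Of 20 other trophoblast genes 16 were compared, 4 were past 2-fold higher and 0 lower, with a median of 0.65. *Peg10*, an imprinted retrotransposon-derived gene needed for the placenta, went from 51.6 to 274 CPM, 5.31-fold higher (95% interval 5.08 to 5.55). *Tmprss2*, a transmembrane serine protease, went from 12 counts to 269, 25.6-fold higher (95% interval 14.4 to 50.3). *Fgfr2*, a receptor for FGF ligands in trophoblast, went from 6.38 to 18.2 CPM and the homeobox gene *Esx1* from 2.50 to 6.20 CPM. The keratin genes *Krt8*, *Krt18* and *Krt19* lay between log2 0.77 and 0.81, while *Tead4*, a TEAD factor of the early trophectoderm, was lower at -0.83. *Peg10* stood at 119 CPM at 6 h and 1488 CPM at 24 h. Among 14 epithelial junction genes 1 was past 2-fold higher, the claudin *Cldn6* (6.45 to 15.1 CPM), with a list median of 0.10. With 2.1% of all genes compared past 2-fold, 1 gene does not tell this list from that share. *Dsp*, *Cldn4* and *Cldn3* followed at log2 0.89, 0.78 and 0.51.

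Primitive endoderm genes were mostly above 0, some from low levels. The primitive endoderm is the blastocyst layer that forms yolk sac, marked by GATA6 and by a type IV collagen and laminin matrix. Of 17 genes 14 were compared and 6 were past 2-fold higher, 0 lower, with a median of 0.78. *Gata6*, the lineage's early transcription factor, went from 4.55 to 12.6 CPM, 2.78-fold higher (95% interval 2.37 to 3.28), and *Pdgfra*, its surface receptor, from 1.13 to 4.52 CPM (1.37, 95% interval 1.09 to 1.64). The collagen chains *Col4a1* (53.4 to 136 CPM) and *Col4a2* (32.2 to 80.0 CPM) were higher by 2.54- and 2.49-fold. *Dab2*, an endocytic adaptor, went from 0.982 to 3.98 CPM and the nuclear receptor *Hnf4a* from 40 counts to 119. Of the 14 genes 12 lay above 0, *Gata4* by little at log2 0.06, while the laminin chain *Lama1* was lower at -0.54, and *Sox7* and *Foxa2* were below the count minimum. With a pseudocount of 5 CPM *Gata6*, *Pdgfra*, *Dab2* and *Hnf4a* were no longer past 2-fold.

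Other lineages had fewer genes past the limit or mixed directions. Over all genes compared 2.1% lay past it, and 1 or 2 genes in lists this short are a description only. Of 13 formative and primed epiblast genes 11 were compared, and 2 were past 2-fold lower (*Nkx1-2* and the ETS factor *Etv1*, 30.5 to 14.6 CPM), 0 higher, with a median of -0.21. *Otx2*, a formative-state homeobox factor, was at log2 -0.48 and *Zic2* at -0.50, and *Fgf5* had 0 counts in both libraries. Among neural genes 7 of 8 were compared and *Tubb3*, a neuronal tubulin, was past 2-fold higher (13.1 to 31.1 CPM), with a median of 0.67. The neural factor *Sox1* went the other way, at log2 -0.84, *Zfp521* was at 0.89 and *Nes* at 0.67. Mesendoderm genes (5 of 8 compared, 0 past the limit, median 0.08) included *T* at -0.47, *Wnt3* at 0.44, *Eomes* at 0.23 and *Gsc* at -0.10. Fibroblast genes (4 of 8 compared, 0 past the limit, median 0.09) included *Col1a1* at -0.67, *Pdgfrb* at 0.45, *Thy1* at 0.26 and *Col1a2* at -0.08.

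The labelled cell type was checked against 6 naive ESC markers, each detected at both times, whose summed level was 5375 CPM at 0 h and 2631 CPM at 10 h. Markers of trophectoderm summed to 10.7 and 16.6 CPM, of primitive endoderm to 8.97 and 21.2 CPM, of neural cells to 64.7 and 105 CPM, of mesendoderm to 7.96 and 7.11 CPM, and of fibroblasts to 4.76 and 3.39 CPM. *Eomes*, listed above with mesendoderm but named by the study as a trophoblast marker, gave 7.71 and 9.21 CPM of the trophectoderm sums. The fibroblast markers *Postn*, *Lum* and *Dcn* had 0 counts at 0 h. The part of other cell types in the ratios above was not tested.

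**Figure D3:**
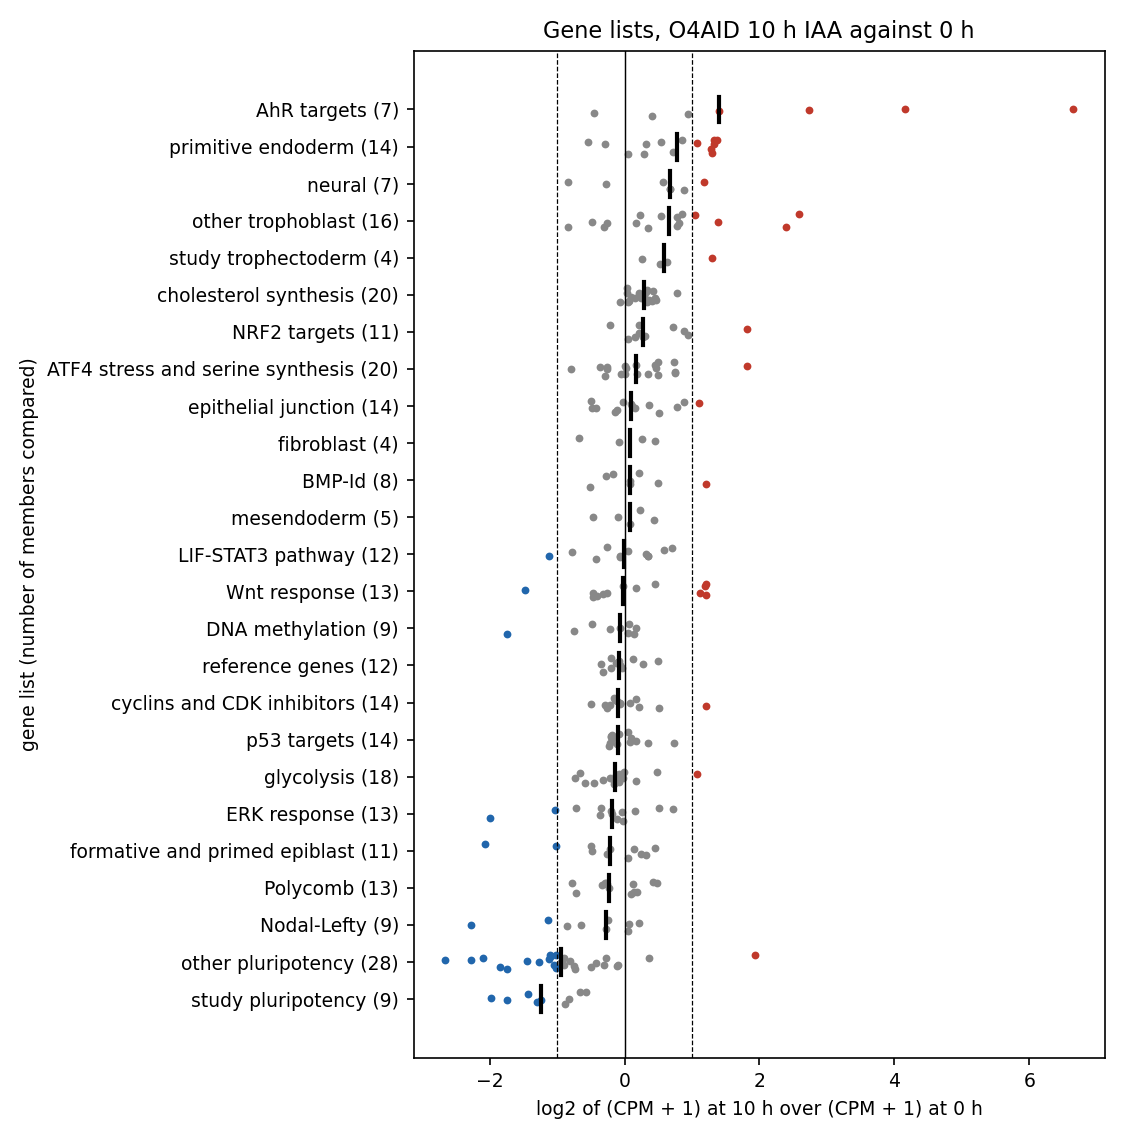
Log2 ratio of (CPM + 1) at 10 h over 0 h (x axis) for the compared members of 25 gene lists (y axis, with the number compared), each point 1 gene, red past 2-fold higher, blue past 2-fold lower, grey neither, black bars the list medians. Medians run from -1.24 in the study pluripotency list to 1.40 in the AhR targets, and dashed lines mark 2-fold.

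Among signalling genes, the Wnt response list split. Chiron, present throughout, activates β-catenin, whose feedback targets include *Axin2* and *Notum*. Of 13 genes compared 4 were past 2-fold higher and 1 lower, where 1.11% and 0.992% of all genes compared were. The list median was -0.03, and 0.03 under total-count scaling. *Axin2*, a scaffold of the β-catenin destruction complex, went from 39.3 to 92.0 CPM, *Sp5*, a transcription factor, from 12.1 to 28.9 CPM, *Notum*, which inactivates Wnt ligands, from 15.1 to 36.3 CPM and *Nkd1*, a Dishevelled antagonist, from 3.63 to 9.08 CPM. *Cdx1*, a homeobox gene, was lower, at 101 and 35.7 CPM (log2 -1.47, 95% interval -1.56 to -1.39). *Axin2* was already at 55.2 CPM at 1.5 h and *Sp5* at 16.3 CPM, so with the 1.5 h library in place of 0 h the log2 ratios of *Axin2*, *Sp5* and *Notum* were 0.73, 0.79 and 0.95.

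ERK response genes, targets of the kinase cascade that MEK inhibitors such as PD03 block, had 13 of 16 compared, 0 past 2-fold higher and 2 lower, with a median of -0.19. These were *Spry2* and *Dusp6*, the ERK phosphatase, at 7.41 and 3.10 CPM (log2 -1.04, and -0.97 under total-count scaling). *Etv5* was at log2 -0.71 and the immediate-early gene *Fos* at 0.72. Nodal and Lefty genes had 9 compared and 2 past 2-fold lower, median -0.27, namely *Tdgf1* and the Nodal antagonist *Lefty1* (84 counts to 11). *Lefty2* was at log2 -0.85 and *Nodal* at -0.65. The LIF-STAT3 list (12 compared, median -0.00, and 0.06 under total-count scaling) had 1 gene past 2-fold lower, the cytokine-signalling suppressor *Socs2* (18.1 to 7.81 CPM). Its relative *Socs3* was at log2 0.71, *Junb* at 0.58 and the homeobox gene *Gbx2* at -0.78. BMP and Id genes (8 compared, median 0.08) had 1 past 2-fold higher, the helix-loop-helix inhibitor *Id4* (3.74 to 9.99 CPM), with *Smad6* at 0.49, *Bmp4* at -0.28 and *Id3* at -0.51. Over all genes compared 2.1% lay past 2-fold, and 1 or 2 genes in lists this short are given as a description only. With a pseudocount of 5 CPM *Dusp6*, *Lefty1*, *Socs2* and *Id4* were no longer past 2-fold.

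Stress and metabolic lists held 0 or 1 gene each past the limit, where 2.1% of all genes compared lay past it. In lists this short 1 gene does not tell a list from that share. NRF2 antioxidant targets (11 compared, median 0.27) and ATF4 stress and serine synthesis genes (20 compared, median 0.18) shared the 1 gene past 2-fold higher in each, the cystine transporter *Slc7a11*, at 3.52 and 14.9 CPM (log2 1.81, 95% interval 1.61 to 2.02). The NRF2 targets *Srxn1* and *Osgin1* were at 0.88 and 0.71, and the ATF4 genes *Chac1*, *Ddit3* and *Cth* at 0.75, 0.74 and -0.79. Targets of p53 had 0 of 14 past the limit and a median of -0.10, with *Phlda3* at 0.73, *Sesn2* at 0.35, *Eda2r* at -0.21 and *Zmat3* at -0.23. Cholesterol synthesis genes had 0 of 20 past the limit, yet 19 of 20 lay above 0 with a median of 0.29, led by *Fdps* (0.78), *Insig1* (0.46), *Lss* (0.45) and *Msmo1* (0.42). Glycolysis genes went mostly the other way, 15 of 18 below 0 with a median of -0.14, including *Ldha* (-0.73), *Pdk1* (-0.66) and *Hk2* (-0.58). Their median was -0.065 under total-count scaling and -0.0005 with the 1.5 h library as the reference, so it depended on these settings. Their 1 gene past 2-fold higher was the glucose transporter *Slc2a1*, at 182 and 382 CPM.

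Chromatin and cell-cycle lists also held 0 or 1 gene each past the limit, against the same 2.1% over all genes compared. DNA methylation genes (9 compared, 0 higher and 1 lower, median -0.07, and 0.00 under total-count scaling) had *Tet1* at -0.75, *Uhrf1*, which brings DNMT1 to replicated DNA, at -0.48 and *Dnmt1* at -0.21. Polycomb genes had 0 of 13 past the limit and a median of -0.23, with the PRC2 subunits *Suz12* and *Eed* at -0.77 and -0.72 and the PRC1 subunits *Cbx7* and *Bmi1* at 0.48 and 0.42. The Polycomb median was -0.16 under total-count scaling and -0.067 with the 1.5 h library as the reference. Cyclins and CDK inhibitors had 1 of 14 past 2-fold higher, *Ccnd2* (74 counts to 203), and a median of -0.09, with *Ccnd3* at -0.50, *Cdkn2b* at 0.52 and *Cdkn2a* at -0.29. The 12 reference genes, a check of the scaling, had 0 past the limit and a median of -0.09, with *Hprt* at -0.34, *Pgk1* at -0.32 and *Gusb* at 0.28.

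The rest of the 15 highest log2 ratios belonged to genes of no fixed list. *Sprr2a1* and *Sprr2a2* encode near-identical small proline-rich proteins of cornified epithelium, between which reads may be split, and went from 12 to 250 counts and from 8 to 197. *Zfp36l3*, a placental RNA-binding zinc finger gene, went from 1.86 to 13.3 CPM (7.14-fold, 95% interval 5.68 to 9.06). *Wnt6*, a Wnt ligand, went from 2.20 to 12.4 CPM, *Gadd45g*, a growth-arrest gene, from 56 counts to 363, and the transcriptional cofactor *Zfp703* from 3.27 to 18.6 CPM. Enzyme genes among them were *Mogat2* (monoacylglycerol acylation; 0.704 to 7.28 CPM), *Dhrs9* (a short-chain dehydrogenase; 13 counts to 188) and *Nags* (N-acetylglutamate synthesis; 16 counts to 181), and the formin *Fhdc1* went from 3.12 to 18.7 CPM. Among genes past 2-fold, those that gained the most CPM were *Ak4*, a mitochondrial adenylate kinase (505 to 1049 CPM, log2 1.05), *Peg10*, *Slc2a1*, *Cyp1a1* and *Dusp9*, an ERK phosphatase gene (118 to 252 CPM, log2 1.09).

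The CreER line shares no library with O4AID and has 2 replicates, so the genes past 2-fold at 10 h of IAA were looked up in it with edgeR's quasi-likelihood test, adjusted by the Benjamini-Hochberg method over all 18969 genes tested there. CreER ESCs lose the *Pou5f1* gene rather than the protein, in another strain and after another agent, so the times are not matched. The labels give the same N2B27 medium for both lines, while the study describes a change of CreER cells to serum and LIF along with 4OHT for its qRT-PCR and western blots, and whether the sequenced cells also had it is not given in the sources used here. Of the 367 genes 332 were tested. At 12 h of 4OHT 75 genes of all tested (0.395%; 0.258% higher, 0.137% lower) passed at an adjusted p under 0.05, and 14 of the 332 did (4.22%), 11 in the direction seen at 10 h of IAA and 3 in the other. At this time *Pou5f1* itself was at 230.2 ± 6.53 CPM against 327 ± 3.92 at 0 h (means ± SD, n = 2; edgeR log2 -0.51). Among the 6 lower genes that fell were *Tdgf1*, *Fgf4* and *Foxd3*, and among the 5 higher genes that rose was *Tubb3*. *Ak4*, *Lefty1* and *Pecam1* went the other way. This count depended on single libraries, being 19 in the same direction without replicate 1 of 0 h, 6 without replicate 2 of 0 h, and 1 without replicate 1 or without replicate 2 of 12 h.

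At 36 h of 4OHT 36.6% of all genes tested passed (19.4% higher, 17.2% lower), and 240 of the 332 did (72.3%). Of the 176 higher genes tested 121 rose (68.8%) and 7 fell, and of the 156 lower genes 100 fell (64.1%) and 12 rose. In the same direction were *Tmprss2* (edgeR log2 2.56 ± 0.14 SE, adjusted p = 2.76e-14), *Gata6* (2.61 ± 0.21, adjusted p = 6.91e-11), *Jam2* (-0.96 ± 0.069, adjusted p = 4.13e-11) and *Tet2* (-0.97 ± 0.044, adjusted p = 8.82e-16). *Pou2f3*, 11.8-fold lower in O4AID, did not pass here at log2 -0.05 ± 0.33 (adjusted p = 0.919). Its CreER level at 0 h was only 0.857 ± 0.207 CPM, against 22.1 CPM in O4AID, so a like fall could hardly be seen there. In CreER *CT010467.1* fell (adjusted p = 0.00932) from 2593 ± 1661 CPM, means ± SD of 2 replicates that differed widely. That call was lost without replicate 1 of 36 h (adjusted p = 0.0549) and without replicate 2 of 36 h (adjusted p = 0.069), and ranged from 8.21e-11 to 0.069 over 10 alternatives by edgeR and DESeq2. With only the 4 libraries compared its edgeR adjusted p was 0.0633.

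By list, the higher trophoblast genes of O4AID (4 of the other trophoblast list and *Krt7*) rose at 36 h in CreER 4 of 4 and 1 of 1, and 4 of the 6 primitive endoderm genes rose while *Pdgfra* and *Hnf4a* did not pass. Of the 13 lower genes of the longer pluripotency list 12 fell, the remaining one, *Esrrb*, being at log2 0.07 ± 0.047 (adjusted p = 0.251). Whole lists, past 2-fold in O4AID or not, moved much the same way at 36 h. Of all 28 genes of that longer list 25 fell and 1 rose. Of 19 other trophoblast genes tested 16 rose and 0 fell, and of 16 primitive endoderm genes 8 rose and 3 fell. Of the 5 lower genes in the study pluripotency list 3 fell, *Zfp42*, *Klf4* and *Nr0b1*, while *Tfcp2l1* rose from 214 ± 4.60 to 335 ± 19.7 CPM (adjusted p = 1.17e-10) and *Tbx3* did not pass. *Lin28a*, higher in O4AID, fell from 606 ± 30.1 to 469 ± 32.8 CPM. *Ccnd2* fell as well, from 13.5 ± 0.524 to 6.09 ± 1.11 CPM, where O4AID held 1.58 CPM at 0 h. *Cdx1* rose at a low level, from 1.22 ± 0.138 to 2.32 ± 0.157 CPM, where O4AID held 101 CPM at 0 h. The AhR targets were split, *Cyp1b1* rising from 10.0 ± 0.717 to 24.3 ± 0.775 CPM (log2 1.27 ± 0.083, adjusted p = 1.16e-12) and *Cyp1a1* from 2.56 ± 0.516 to 3.65 ± 0.00641 CPM, *Tiparp* falling from 111 ± 2.88 to 91.0 ± 0.345 CPM (adjusted p = 6.50e-06) and *Ahrr* not passing (adjusted p = 0.135). The edgeR calls of *Cyp1a1* (adjusted p = 0.0242, range 0.00925 to 0.284 over 10 alternatives) and *Klf4* (adjusted p = 0.0275, range 0.00174 to 0.222) rested on single libraries and on the tool. With DESeq2 neither passed (adjusted p = 0.155 for *Cyp1a1* and 0.0651 for *Klf4*), nor did *Cyp1a1* under total-count scaling (edgeR adjusted p = 0.0553) or *Klf4* with only the 4 libraries compared (edgeR adjusted p = 0.0757). *Cyp1a1* did not pass without replicate 2 of 0 h or without either replicate of 36 h (adjusted p = 0.284, 0.0898 and 0.074), nor *Klf4* without replicate 1 of 0 h or replicate 2 of 36 h (adjusted p = 0.112 and 0.222). The difference between the lines in any of these genes was not tested, since O4AID has 1 library a time.

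**Figure D4:**
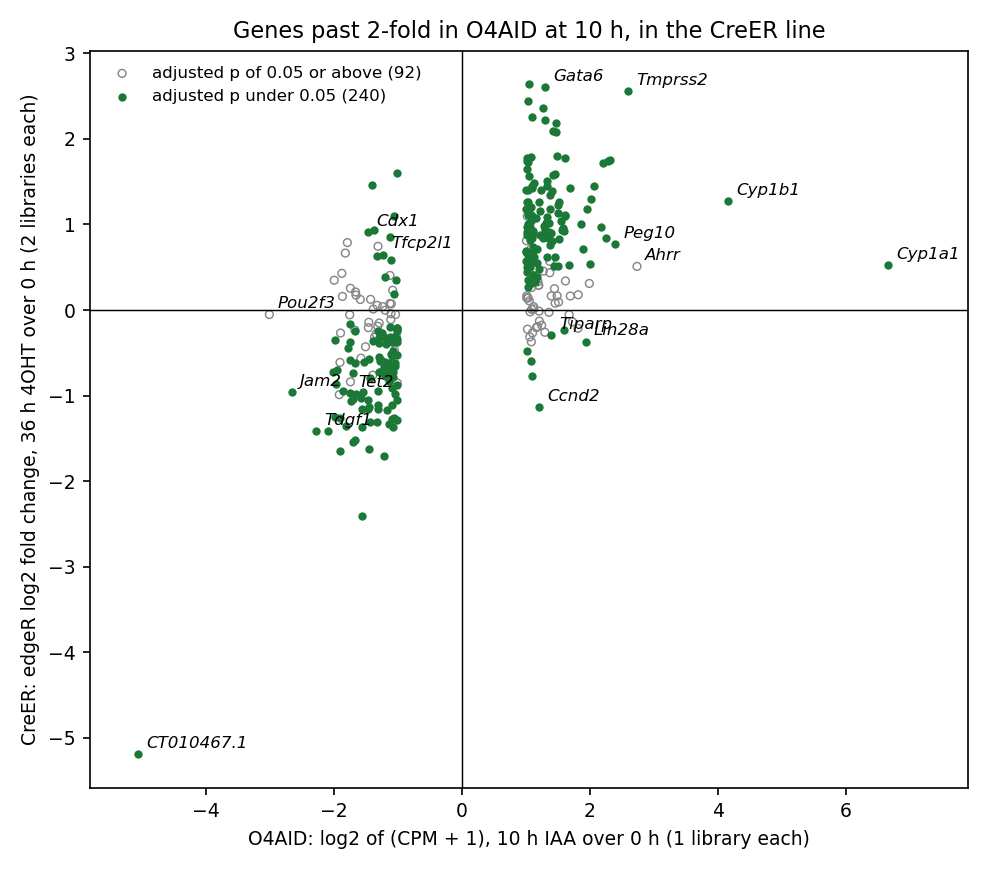
For the 332 genes past 2-fold in O4AID that were tested in CreER, the O4AID log2 ratio of (CPM + 1) at 10 h over 0 h (x axis, 1 library each) against the CreER edgeR log2 fold change at 36 h over 0 h (y axis, 2 libraries each), filled where the adjusted p was under 0.05 (240) and open otherwise (92). The gap around 0 on the x axis is the 2-fold limit itself, 221 filled points lie in the quadrants of equal sign, and *Tfcp2l1* and *Lin28a* are among the 19 in the others.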

How the data were processed

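RNA was extracted, depleted of ribosomal RNA with Ribo-Zero, and made into directional paired-end libraries, which were sequenced on a HiSeq4000. Per the labels and the study's methods, the authors trimmed reads with Trim Galore 0.1.4, aligned them to GRCm38/mm10 with TopHat2 2.1.0 and counted them per gene with featureCounts 1.5.1 on Ensembl annotation of that build. Strand and multimapping settings are not given in the sources used here, so antisense, overlapping and near-identical genes are uncertain. The deposited files used here hold raw counts per gene, 48801 entries each, of which 92 spike-in entries with 0 reads were left out. The deposited normalised table of the whole series was not used. Symbols were matched for 48349 of 48709 genes. Reads carry no molecular identifiers.

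Libraries were grouped by their labels. TMM factors came from edgeR 4.0.16 in R 4.3.3, over the 5 O4AID libraries. Ratios and exact (Clopper-Pearson) 95% intervals, with a pseudocount of 1 CPM, a minimum mean of 10 counts and a limit of 2-fold, were computed in Python 3.11.15 with scipy 1.17.1. The study's NOISeq-sim calls were not used, because they rest on simulated replicates. The 10 CreER libraries were fitted together with glmQLFit, filterByExpr and TMM, with a threshold of 0.05 on the adjusted p. Nothing in the labels says whether the replicates came from separate cultures, so these p-values measure the spread between these libraries, which may be technical. Both procedures were run on simulated data. For the ratio rule these held counting error alone, so that run left out the further spread between replicates. Promoters were those of RefSeq on GRCm38.p6.

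Named genes were *Pou5f1*, the 15 highest and 15 lowest log2 ratios with a symbol and a mean of at least 50 counts, the 5 largest gains and losses in CPM among genes past 2-fold, every list member past 2-fold and, in lists with fewer than 4 of these, the members of largest log2 ratio up to 4, which gave 135 genes. Others were named after their values were seen. Some genes that this rule picks are not reported here. The comparison, the 25 gene lists and this rule were chosen with earlier results of these data known. Alternatives changed the scaling, pseudocount, count minimum, fold limit and reference library, and in CreER the tool, scaling, filter, libraries and replicate block.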

Additional observations from a re-analysis of the deposited data

How the results depend on the processing

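Against 194 higher and 173 lower genes, RLE scaling gave the same counts, total-count scaling gave 223 and 150, and a minimum mean of 100 counts gave 163 and 151. No filter gave the same counts too. At this depth the rule on CPM + 1 admits no gene below the count minimum, so that was fixed in advance. A pseudocount of 0.1 CPM gave 615 and 436, one of 5 CPM gave 65 and 82, and a 1.5-fold limit gave 768 and 621, as each setting by construction moves low or small ratios over or under the limit. With the 1.5 h library as the reference 145 higher and 112 lower genes were past 2-fold, of which 120 and 105 were among the main ones. The study pluripotency median was -1.17 under total-count scaling and -1.01 against 1.5 h, and the study trophectoderm median was 0.92 and 0.22 with pseudocounts of 0.1 and 5 CPM. Against 1.5 h the ATF4 median turned to -0.055 and the BMP and Id median to -0.12. Under a pseudocount of 5 CPM *Krt7*, *Gata6*, *Pdgfra*, *Dab2*, *Hnf4a*, *Esx1* and *Lefty1* were among the list members no longer past 2-fold. RLE scaling moved 0 of the 135 named genes beyond their counting interval, and total-count scaling moved 38. Why other values moved was not tested. With 1 library a side, no library of this comparison could be left out.

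Of the genes past 2-fold, 11 passed in CreER at 12 h in the same direction. This became 27 with no filter and 7 with only the 4 libraries compared, 9 with DESeq2 1.42.0, and 1 to 19 leaving out 1 replicate. The calls over all genes at 12 h were 75, with 222 under no filter and 8 to 218 leaving out 1 replicate. At 36 h the 221 genes became 182 with DESeq2 and 192 to 207 leaving out 1 replicate. The replicate numbers of CreER did not pair the libraries, as deviations of same-numbered libraries correlated between -0.0781 and 0.0881, and a replicate block gave 12 and 220 genes at 12 and 36 h.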

Other observations

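Gene families read off by symbol, chosen after their values were seen, were also compared. Of 82 cytosolic ribosomal protein genes 80 were below 0 at 10 h, with a median log2 ratio of -0.17 and a range of -0.44 to 0.17. Of 60 replication-dependent histone genes 56 were below 0 (median -0.41, range -0.80 to 0.47), and 9 of 13 mitochondrially encoded protein genes were (median -0.14). None of these 3 families held a gene past 2-fold in either direction. The 12 reference genes had a median of -0.09, and total-count scaling raised the median over all genes compared by 0.055. Family medians of this small size therefore depend on the scaling. The 7 keratin genes compared were all above 0, with a median of 0.77, and *Krt7* was the 1 past 2-fold. The 3 small proline-rich genes compared, *Sprr2a1*, *Sprr2a2* and *Sprr2a3*, were all past 2-fold higher. Among 275 solute carriers 6 were past 2-fold higher (*Slc11a1*, *Slc16a5*, *Slc24a5*, *Slc2a1*, *Slc44a5* and *Slc7a11*) and 7 lower (*Slc13a5*, *Slc28a1*, *Slc39a8*, *Slc52a3*, *Slc5a1*, *Slc5a11* and *Slc9a2*). Over all genes compared 1.11% were past 2-fold higher and 0.992% lower. As the family was picked after its values were seen, its counts are a description only.

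Starting levels of some of the genes differed between the lines. *Peg10* stood at 51.6 CPM in the O4AID library at 0 h and at 1898 ± 49.6 CPM in CreER at 0 h (mean ± SD, n = 2), *Lin28a* at 2.37 and 606 ± 30.1 CPM, and the ERK phosphatase gene *Dusp6* at 7.41 and 134 ± 1.42 CPM. *Tfcp2l1* stood higher in O4AID, at 1598 CPM against 214 ± 4.60 CPM. The lines were scaled separately and this difference between them was not tested.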
